A study of Mus musculus with 4 samples.

Results

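Replication licensing and fork genes encode the proteins that prepare chromosomes for copying and that open and copy the DNA at replication forks. The 10 genes described here were chosen by their Ensembl gene IDs: Mcm2 (ENSMUSG00000002870), Mcm3 (ENSMUSG00000041859), Mcm4 (ENSMUSG00000022673), Mcm5 (ENSMUSG00000005410), Mcm6 (ENSMUSG00000026355), Mcm7 (ENSMUSG00000029730), Cdc45 (ENSMUSG00000000028), Cdc6 (ENSMUSG00000017499), Cdt1 (ENSMUSG00000006585) and Pcna (ENSMUSG00000027342). All 10 were found among the 23879 genes measured, and no filter on low values removed any of them. They were measured in the whole cochlea, the auditory part of the inner ear, of mouse embryos at embryonic day 15. The comparison was between 2 wild-type arrays and 2 arrays from embryos labelled N-myc ko, all on a mixed 129/Sv and CD-1 background. Mycn encodes N-myc, a MYC family transcription factor. The sources used here do not give the allele, any Cre driver, the cells in which the gene was lost, or whether embryos were pooled for a sample. Arrays within a group are labelled as biological replicates, and without a stated origin the p-values measure only the spread between these samples.

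In a dividing cell, the origin recognition complex, CDC6 and CDT1 load the ring of MCM2 to MCM7, the core of the replicative helicase, onto DNA before S phase, a step called licensing. CDC45 and the GINS complex then join the ring and switch the helicase on, and the sliding clamp PCNA holds DNA polymerase at the fork. Transcription of these genes rises around the start of S phase under E2F factors, and many have been described as targets of MYC proteins. In the mouse cochlea, progenitors of the sensory epithelium leave the cell cycle in a wave that runs from the apex towards the base, while other cochlear cells go on dividing.

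Values are on the log2 scale, as RMA gives them in the authors' table, so that a difference of 1 is a 2-fold change. A value reflects the probes of its own gene, and values of different genes were not compared as levels. The targeted gene Mycn and the markers of cochlear and neighbouring cell types were not analysed here, because the table gives Ensembl IDs alone and the gene table at hand pairs none of its 49997 genes with one. The knockout and the make-up of the tissue were therefore not checked against their defining genes. In whole tissue, fewer dividing cells and less RNA per dividing cell cannot be told apart.

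Of the 10 genes, 5 fell in N-myc ko cochleae and 0 rose, in a limma test of all genes. A gene was called where its Benjamini-Hochberg adjusted p did not exceed 0.14. The study's design gives a false discovery rate of up to 14%, but its own test was significance analysis of microarrays (SAM), not limma. Those that fell were the helicase genes Mcm7, Mcm5 and Mcm2, the helicase activator Cdc45 and the loading factor Cdt1. The falls were between 1.24-fold for Mcm2 and 1.49-fold for Mcm7. The other 5 genes, Mcm3, Mcm4, Mcm6, Cdc6 and Pcna, were not called. Over all genes measured, 19.8% were called lower and 14.9% higher. The median log2 change of the 10 genes was -0.26, against -0.03 for all genes. These genes are bright, and bright genes fell more often on these arrays: 30.5% of the 4586 genes nearest in mean value to any of the 10 were called lower and 4.69% higher.

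The calls depended on single arrays. Without N-myc ko replicate 1 only Mcm7 was called lower, against 7.18% of all genes, and without wild-type replicate 1 again only Mcm7, against 12.6%. Without wild-type replicate 2 the calls were Mcm7, Mcm5 and Cdc45, against 11.3% of all genes. Without N-myc ko replicate 2 there were 6 lower calls, Mcm3 being added to the 5, against 14.7% of all genes. Mcm7 was thus the only gene of the 10 called lower under every one of these 4 fits.

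**Figure D1:**
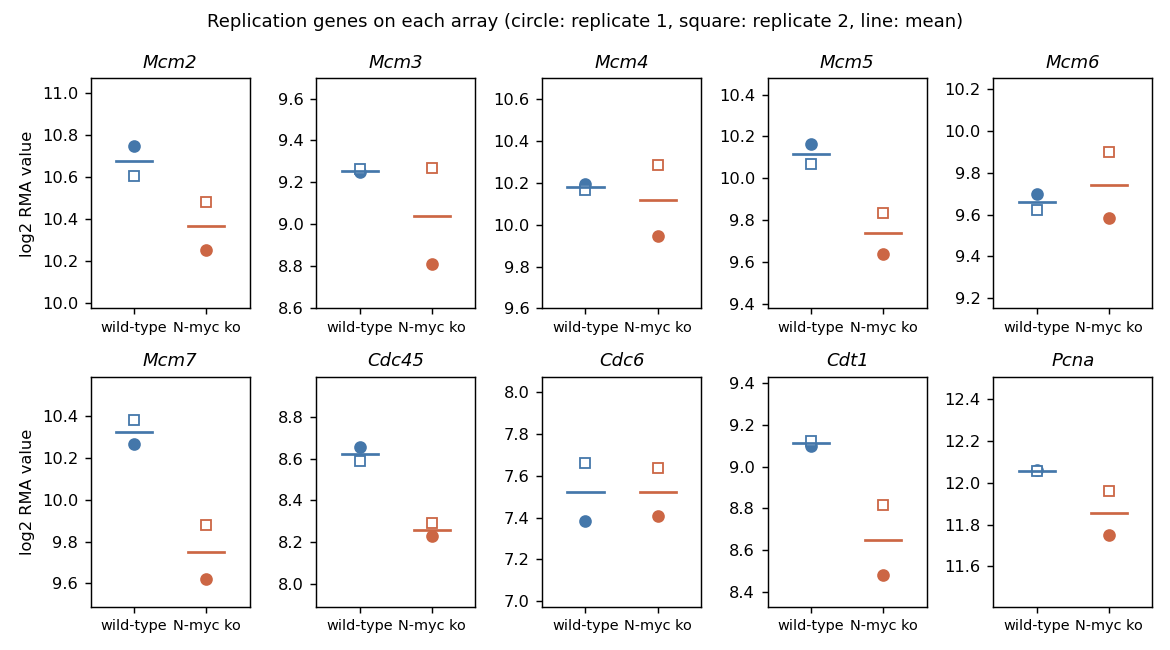
Each panel plots the log2 RMA value of 1 gene (vertical axis, the same span in every panel) on the 2 wild-type and the 2 N-myc ko arrays, with a circle for replicate 1, a square for replicate 2 and a line for the group mean. Both N-myc ko values lie below both wild-type values for Mcm2, Mcm5, Mcm7, Cdc45, Cdt1 and Pcna, and the groups overlap for the other 4 genes.

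Sequence around the transcription start was taken from RefSeq (GRCm38.p6) for 9 of the 10 genes, with 10 entries because Mcm7 has 2 starts. Mcm4 was not among them. Each stretch holds 250 bases before the start and 50 after it. The 4 shown are those of the helicase genes with the widest fall (Mcm7, its upstream start, and Mcm5), of the helicase gene with the highest change (Mcm6) and of the loading factor that fell (Cdt1). Capitals mark letters of the E2F type and the CCAAT letters that NF-Y binds, on either strand. The E2F letters searched were TTCGCGC, and the same with the middle letters changed, namely TTGGCGC. A further form was TTCCCGC. The last was TTGCCGC.
Mcm7, chr5:138171834-138172133, - strand: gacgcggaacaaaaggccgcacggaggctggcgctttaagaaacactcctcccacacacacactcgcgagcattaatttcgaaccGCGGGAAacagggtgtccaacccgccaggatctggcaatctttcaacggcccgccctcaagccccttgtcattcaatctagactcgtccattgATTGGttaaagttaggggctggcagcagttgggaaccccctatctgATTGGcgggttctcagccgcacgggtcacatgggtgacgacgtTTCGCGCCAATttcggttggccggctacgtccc
Mcm5, chr8:75109259-75109558, + strand: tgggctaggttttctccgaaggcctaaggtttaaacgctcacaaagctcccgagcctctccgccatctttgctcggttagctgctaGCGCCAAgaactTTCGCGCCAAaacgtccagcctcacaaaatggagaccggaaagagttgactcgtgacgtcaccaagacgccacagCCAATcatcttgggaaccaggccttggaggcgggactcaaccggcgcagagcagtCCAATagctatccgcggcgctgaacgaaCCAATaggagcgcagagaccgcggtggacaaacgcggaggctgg
Mcm6, chr1:128359656-128359955, - strand: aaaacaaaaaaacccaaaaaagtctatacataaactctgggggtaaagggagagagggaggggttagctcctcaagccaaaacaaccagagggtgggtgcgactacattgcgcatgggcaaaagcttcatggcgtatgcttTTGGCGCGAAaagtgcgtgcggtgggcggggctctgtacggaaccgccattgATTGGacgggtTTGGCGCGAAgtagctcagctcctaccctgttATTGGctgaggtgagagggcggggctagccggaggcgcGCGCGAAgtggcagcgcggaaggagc
Cdt1, chr8:122567765-122568064, + strand: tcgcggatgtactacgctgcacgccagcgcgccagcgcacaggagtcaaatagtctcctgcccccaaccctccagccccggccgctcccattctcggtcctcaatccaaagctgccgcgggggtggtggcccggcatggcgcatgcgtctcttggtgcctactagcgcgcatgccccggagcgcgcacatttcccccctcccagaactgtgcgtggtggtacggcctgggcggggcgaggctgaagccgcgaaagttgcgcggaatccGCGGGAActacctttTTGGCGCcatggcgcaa
In the Mcm7 stretch, E2F letters begin at position -165 from the start and again at positions 18 and 21 after it, where they overlap each other and a CCAAT. The Mcm6 stretch holds E2F letters at 5 places, in overlapping pairs that begin at positions -109 and -106 and again at -46 and -43, and once at position 25 after the start. E2F letters were in 6 of the 9 genes with a stretch, those without being Mcm2, Cdc45 and Pcna, and in 9.57% of all 32851 stretches of this length in the table. CCAAT was in 7 of the 9 genes and in 37.4% of all stretches. The E-box CACGTG, the best known letters bound by MYC and MAX, was in 0 of the 9 and in 7.15% of all stretches. Genes that fell and genes that were not called both held E2F letters, and these matches describe the sequence only.

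Among the 6 subunits of the helicase ring, Mcm7, Mcm5 and Mcm2 fell and Mcm3, Mcm4 and Mcm6 were not called. Mcm7 read 10.27 and 10.38 in wild-type cochleae and 9.62 and 9.88 in N-myc ko cochleae. Both N-myc ko arrays lay below both wild-type arrays, by more than either pair of replicates differed. The log2 change of Mcm7 was -0.57 (SE 0.12, limma adjusted p = 0.0323), from 10.33 ± 0.08 to 9.75 ± 0.18 (SD, n = 2 each).

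Mcm5 had log2 values of 10.17 and 10.07 in wild-type and 9.64 and 9.84 in N-myc ko cochleae. Its log2 change was -0.38 (SE 0.11, limma adjusted p = 0.0613). Mcm2 gave 10.75 and 10.61 against 10.25 and 10.48, a log2 change of -0.31 (SE 0.12, limma adjusted p = 0.112). For both genes the groups did not overlap, though for Mcm2 the lower wild-type value and the higher N-myc ko value were closer to each other than the replicates of either group were. Mcm2 was the weakest of the 5 calls.

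The other subunits of the ring had N-myc ko values on either side of wild-type. Mcm3 read 9.25 and 9.26 in wild-type cochleae and 8.81 and 9.27 in N-myc ko cochleae, so that only N-myc ko replicate 1 lay below. Its log2 change of -0.22 (95% interval -0.59 to 0.16) had a limma adjusted p of 0.366. Mcm4 read 10.20 and 10.17 in wild-type and 9.95 and 10.29 in N-myc ko cochleae, one below and one above both wild-type values. Its log2 change was -0.07 (95% interval -0.38 to 0.25, limma adjusted p = 0.75). Mcm6 had 9.70 and 9.62 in wild-type and 9.58 and 9.90 in N-myc ko cochleae, and was the only gene of the 10 with a positive change, 0.08 (95% interval -0.23 to 0.39, limma adjusted p = 0.68). These intervals leave room for falls of the size seen in Mcm2 for Mcm3 and Mcm4, and the interval of Mcm6 reaches down to -0.23.

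The subunits were also set against the mean of the 6 Mcm genes on the same array, which takes out any shift they share. That mean was 10.05 and 10.02 in wild-type cochleae and 9.64 and 9.94 in N-myc ko cochleae, and it changed by -0.24. Changes on this relative scale sum to 0 over the 6 genes, so a gene that did not follow the mean goes up. Relative to it, Mcm7 stood at 0.21 and 0.36 in wild-type and at -0.02 and -0.06 in N-myc ko cochleae. Mcm6 went from -0.35 and -0.40 to -0.06 and -0.04, a relative difference of 0.33, most of which is the change of the mean, since its own change was 0.08 and was not called. The N-myc ko arrays, which differed in the mean by more than the wild-type arrays, were thus close to each other on this relative scale for both genes. Mcm7 minus Mcm6 was 0.57 and 0.76 in wild-type and 0.04 and -0.02 in N-myc ko cochleae, so that the group means differed by -0.66. This pair was picked as the lowest and the highest change of the 10 genes, so the difference is a description and was not tested. The groups also did not overlap for Mcm5, from 0.11 and 0.05 to -0.003 and -0.11, nor for Mcm4, from 0.14 and 0.15 to 0.30 and 0.35, where the fall of the mean again exceeds the gene's own change of -0.07. For Mcm2 and Mcm3 they overlapped. How often other genes fail to overlap was not counted on this scale. On the log2 values themselves 36.2% of all genes had both N-myc ko values below both wild-type values and 28.8% both above, so a lack of overlap was common. The relative scale, too, was chosen after the values were seen.

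Of the 2 loading factors, Cdt1 fell and Cdc6 was not called. Cdt1, which brings the MCM ring to the origin, read 9.10 and 9.12 in wild-type cochleae and 8.48 and 8.82 in N-myc ko cochleae. The wild-type arrays were nearly equal and both N-myc ko arrays lay below them, N-myc ko replicate 1 the farther. Its log2 change was -0.46 (SE 0.13, limma adjusted p = 0.0602), the widest after Mcm7. Cdc6, the ATPase that works with the origin recognition complex, read 7.39 and 7.66 in wild-type and 7.41 and 7.64 in N-myc ko cochleae. Each replicate of one group had a near match in the other, and the log2 change was -0.001 (95% interval -0.32 to 0.32, limma adjusted p = 0.997). Changes of up to 0.32 in either direction lie within that interval. Whether the 2 loading factors differed in their change was not tested.

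At the fork, Cdc45 fell and Pcna was not called. Cdc45, which completes the active helicase, had log2 values of 8.65 and 8.59 in wild-type and 8.23 and 8.29 in N-myc ko cochleae. Replicates of both groups were close, and the groups stood well apart. Its log2 change was -0.36 (SE 0.09, limma adjusted p = 0.0485), a smaller change than that of Cdt1 with a smaller error. Pcna read 12.06 on both wild-type arrays, and 11.75 and 11.96 in N-myc ko cochleae. Both N-myc ko values lay below wild-type, yet the N-myc ko replicates differed by more than the nearer of them differed from wild-type. The log2 change of Pcna was -0.20 (95% interval -0.46 to 0.05, limma adjusted p = 0.225). Counted by overlap, 6 of the 10 genes had both N-myc ko values below both wild-type values and 0 had both above. Over all genes 36.2% had both below and 28.8% both above, and 54.1% of those nearest in mean value had both below, so the count of 6 is close to its background.

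Because the direction of change went with brightness, each gene was set beside its 500 nearest genes in mean log2 value, with 250 on either side. Pcna had 498, being near the top of the range. The median change of these nearest genes was -0.13 for Mcm7, whose own change differed from that median by -0.44 and stood at the 2.4 percentile of them. Cdt1 differed from the median of its nearest genes by -0.23 (11.6 percentile), Mcm5 by -0.24 (13.6 percentile) and Mcm2 by -0.20 (14.8 percentile). Cdc45, with a tight difference between the groups, was less far from its nearest genes, at -0.14 (28.6 percentile), their own median change being -0.22. At the other end, Mcm6 lay 0.27 above the median of its nearest genes, at the 92.0 percentile. Pcna lay below its nearest genes by -0.17 (18.9 percentile), Mcm3 was near their median at -0.01 (47.0 percentile), and Mcm4 and Cdc6 lay above it by 0.07 and 0.09. In all, 7 of the 10 genes were below the median of their nearest genes and 3 above, with a median difference of -0.16. The split became 9 below and 1 above without N-myc ko replicate 2, where Mcm4 was at -0.06 and Cdc6 at -0.05. It was 6 and 4 without N-myc ko replicate 1, where Mcm3 was at 0.16, against -0.21 without N-myc ko replicate 2. Without any 1 array, Mcm7, Mcm5, Mcm2, Cdt1, Cdc45 and Pcna stayed below the median of their nearest genes and Mcm6 above it. These percentiles describe where a gene lay among others and are not tests.

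**Figure D2:**
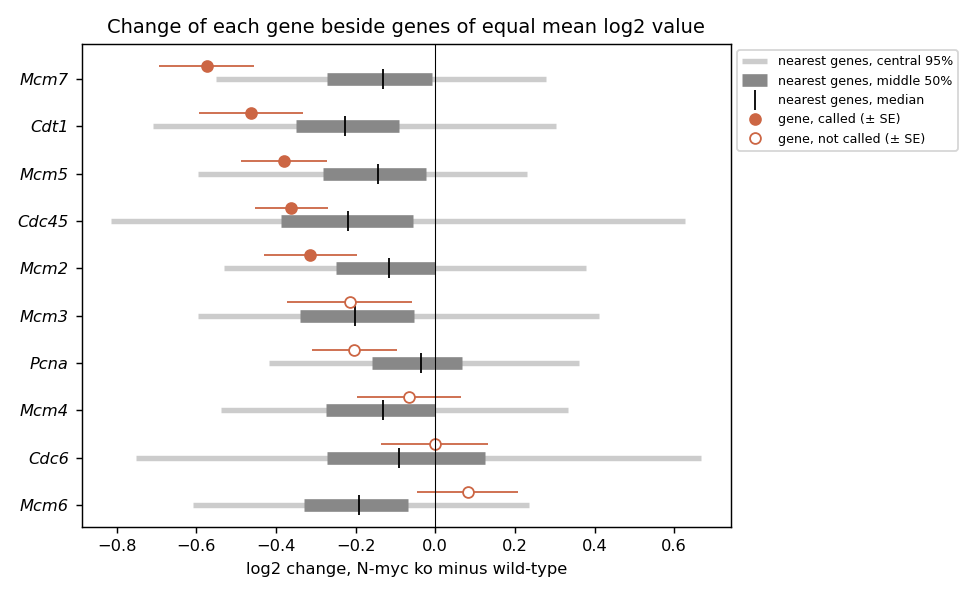
The horizontal axis is the log2 change, N-myc ko minus wild-type. Each gene is a circle with its SE (filled where called lower) above the spread of the genes nearest to it in mean log2 value (498 for Pcna, 500 for the others), with their median as a tick, the middle 50% as a dark bar and the central 95% as a pale bar. Mcm7 lies left of the central 95% of its nearest genes and Mcm6 lies to the right of their middle 50%.

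After the deposited values were quantile normalised, which gives every array the same distribution, Mcm7 alone was called lower (log2 change -0.43, limma adjusted p = 0.0643), against 10.1% of all genes. Cyclic loess normalisation gave the same single call, against 9.7% of all genes. The changes of Cdt1, Mcm5, Mcm2 and Cdc45 shrank to between -0.27 and -0.18 after quantile normalisation, with limma adjusted p from 0.193 to 0.28, and kept their sign. Mcm6 stood at 0.26 on that scale and was not called (limma adjusted p = 0.201), and Mcm4 and Cdc6 turned to 0.06 and 0.05. At an adjusted p under 0.05 the calls on the deposited values were Mcm7 and Cdc45, against 8.2% of all genes. SAM, the study's own test, rebuilt here at the study's limit, added Mcm3 and Pcna to the 5 genes. This rebuilt test called 32.9% of all genes lower and 25.8% higher. Centring each array on its median left out Mcm2 (limma adjusted p = 0.183), with 14.9% of all genes lower. The same 5 genes were called with a brightness trend or array weights (19.7% of all genes for each), with robust variances (19.8%), with the replicate number as a block (21.2%) and among the genes above the median brightness (34% of those genes).

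**Figure D3:**
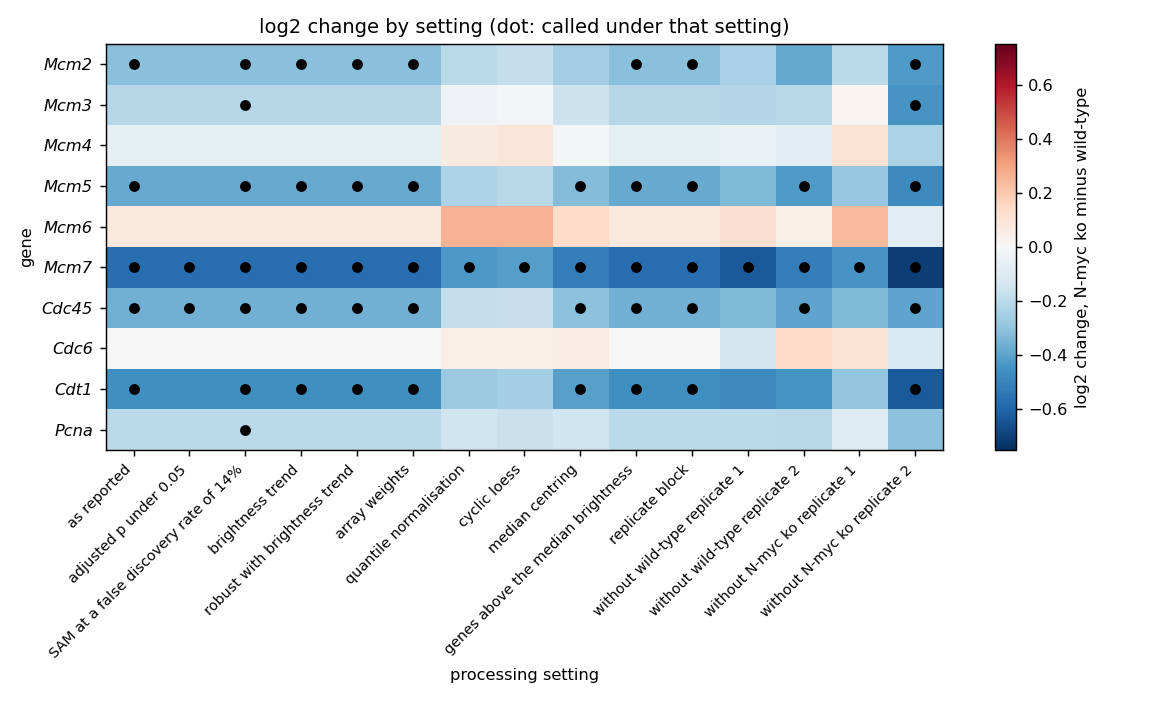
Rows are the 10 genes and columns the settings, with the colour giving the log2 change, N-myc ko minus wild-type, and a dot marking a gene called under that setting. Mcm7 carries a dot in every column, and Mcm4, Mcm6 and Cdc6 in none.

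The N-myc ko arrays differed from each other across the whole set. N-myc ko replicate 1 was below replicate 2 for 10 of the 10 genes, with a median gap of 0.24. Among all genes 50.5% lay the same way, and among those nearest in mean value 66.6%, with a median gap of 0.06. The gap was widest for Mcm3, at 0.46 (98.2 percentile of its nearest genes), and narrowest for Cdc45, at 0.07 (54.0 percentile). It was 0.34 for Mcm4 and for Cdt1, 0.32 for Mcm6 and 0.26 for Mcm7. The wild-type arrays showed no such order: replicate 1 was the lower for 4 of the 10 genes (54.9% of those nearest in mean value), the median gap was -0.02, and the widest, 0.28, was that of Cdc6. Set against the wild-type mean, N-myc ko replicate 1 was lower for all 10 genes, by a log2 difference from -0.70 for Mcm7 to -0.08 for Mcm6. N-myc ko replicate 2 was lower for 6 of them, from -0.44 for Mcm7 to -0.10 for Pcna, and higher for Mcm3, Mcm4, Cdc6 and Mcm6. Whether the 2 N-myc ko samples differed in their make-up, their stage or their RNA was not tested.

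**Figure D4:**
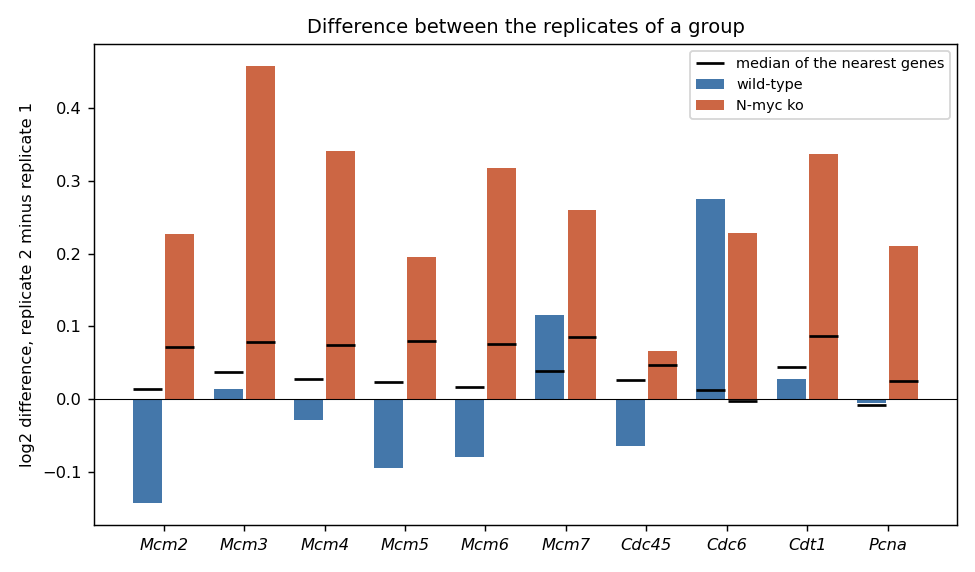
Bars give the log2 value of replicate 2 minus that of replicate 1 for each gene (blue, wild-type; orange, N-myc ko), and black lines the median of the genes nearest in mean log2 value. All 10 N-myc ko bars lie above 0 and above their black line, while the wild-type bars lie on both sides of 0.

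The wider set of S phase genes came from marker pairs that scran distributes by Ensembl ID, derived from mouse embryonic stem cells sorted by phase. Mcm2, Mcm7 and Cdc45 are in that list and the other 7 genes are not. With these 3 left out, 39 of 118 S phase genes fell (33.1%, against 19.8% of all genes), and 1 rose, where 14.9% of all genes rose. Their median log2 change was -0.20, against -0.26 for the 10 replication genes and -0.03 for all genes. Among genes above the median brightness it was -0.20 for 111 of the S phase genes, against -0.16 for all such genes. In that fit 37 of the 111 fell and 0 rose, where 34% of all such genes fell and 5.8% rose. The median of the S phase genes was -0.06 after quantile normalisation, against -0.01 for all genes. The share of the 118 that fell was close to the 30.5% of genes nearest in mean value to the replication genes, of which 4.69% rose. Those genes were matched to the 10 replication genes, and none were matched in mean value to the S phase genes. After quantile normalisation 12 of the 118 fell and 4 rose, where 10.1% of all genes fell and 10.1% rose. Without N-myc ko replicate 1, 8 fell and 2 rose, where 7.18% of all genes fell and 6.01% rose. In both settings the share of S phase genes that fell was near that of all genes, but this did not hold in every setting. SAM called 75 of the 118 lower and 4 higher, where it called 32.9% of all genes lower and 25.8% higher. These shares of all genes were not matched for brightness, and bright genes fell more often. The median change of the S phase genes was -0.13 without N-myc ko replicate 1, against -0.02 for all genes. Without N-myc ko replicate 2 that median was -0.26, against -0.04 for all genes. N-myc ko replicate 1 was below replicate 2 for 94 of the 118 genes (79.7%) with a median gap of 0.13, and the wild-type replicates had a median gap of -0.001.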

How the data were processed

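The deposited log2 values are RMA expression values that the authors made with RMA and the affy package, per the submitters' processing notes and the series' design text, with background correction, normalisation within and between arrays and 1 value per Ensembl gene ID. They run from 3.63 to 14.3. No source used here gives the array design or versions. Groups came from the sample titles.

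All 23879 genes were fitted on all 4 arrays in R 4.3.3 with limma 3.58.1 (two-sided, lmFit then eBayes with no trend, 2 residual and 4.33 prior degrees of freedom), as N-myc ko minus wild-type, and adjusted by Benjamini-Hochberg over all genes. The study's own test, significance analysis of microarrays (SAM), has 6 label arrangements here and was rebuilt as an alternative. For a single gene, the smallest exact permutation p from these arrangements is 0.333. Intervals are limma's 95% intervals. The number of arrays limits the precision. S phase genes are those more often the higher partner in S pairs alone in scran 1.30.0. The rule for named genes took all 10 members. The members and lists were chosen with earlier results of these data known. The 14 lists fixed by symbol (135 symbols, other replication genes, mitotic genes and cell types among them) could not be matched to the IDs and were not analysed here. The fit was tested on simulated data with few changed genes and no shift with brightness. Recovery of calls was required there only for a log2 change wider than that of any of the 10 genes.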

Additional observations from a re-analysis of the deposited data

How the results depend on the processing

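Of the 5 lower calls, 2 held at an adjusted p under 0.05, where 8.2% of all genes were called lower. With quantile normalisation 1 was called, against 10.1% of all genes, as with cyclic loess, against 9.7%. Leaving out single arrays gave 1 to 6 lower calls. Each such fit has 3 arrays, and the group with a single array takes its spread from the other. Apart from those fewer arrays, the cause was not tested. SAM gave 7, against 32.9% of all genes lower, and median centring 4, against 14.9%. The share of all genes called lower thus changed with the setting too, also where single arrays were left out. No gene of the 10 was called higher in any of these fits, which called between 5.8% and 25.8% of all genes tested higher. On the deposited values only 4.69% of the genes nearest in mean value were called higher, so a count of 0 is close to that background. The median log2 change of -0.26 ranged from -0.41 to -0.15 without 1 array, and the median difference from the nearest genes of -0.16 ranged from -0.23 to -0.090. With 200 or 1000 nearest genes the latter was -0.17 and -0.15. No gene was called under a setting in which its sign changed. With quantile normalisation, cyclic loess and median centring, Cdc6 was 0.0477, 0.0435 and 0.0542, and with the first and second of these Mcm4 was 0.0646 and 0.0915. Without 1 array, Cdc6 ran from -0.139 to 0.137 (0.113 without N-myc ko replicate 1), Mcm4 from -0.236 to 0.105, Mcm3 from -0.444 to 0.014 and Mcm6 from -0.0769 to 0.240. The replicate numbers share no stated origin (across genes, the deviations of arrays with the same number correlated at 0.12). A fit with the replicate block called 5 genes lower (21.2% of all genes) and 0 higher (15.8% of all genes), with the median at -0.26. Planned settings for the lists fixed by symbol were not run.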
